A study of Homo sapiens with 16 samples.

Results

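The genes described here are 41 genes of epithelial and mesenchymal state and of the extracellular matrix, named by symbol and looked up among the 64792 gene identifiers of the count table. Each of the 41 symbols matched 1 identifier. The rule lists symbols and uses no measured value, but the list was drawn up with earlier results of these data known. The 16 libraries hold messenger RNA of DU145 cells, a human cell line long grown from a prostate cancer metastasis. The 4 groups of 4 replicates are cells given lactate, cells given I-BET762, cells given lactate together with I-BET762, and control cells. I-BET762 is a small molecule that occupies the bromodomains of BET proteins, readers of acetylated histones. No dose or duration is given for either agent, and all the groups share the 1 cell line. The labels call the replicates independent without saying what separated them, so p-values measure the spread between these samples. A cell-line field of the 4 libraries given both treatments carries 4 other names that count on from DU145, and their titles, which give DU145, were followed.

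Epithelial cells hold together through E-cadherin junctions and sit on a basement membrane of laminin and type IV collagen, which they grip with integrins. In epithelial-mesenchymal transition, transcription factors of the SNAI, ZEB and TWIST families repress the E-cadherin gene, and cells gain vimentin, N-cadherin and matrix proteins. Transforming growth factor beta (TGF-beta) is a main inducer of this change: its receptors phosphorylate SMAD3, which enters the nucleus and switches on matrix genes as well as SMAD7, an inhibitor that shuts the receptor down. In prostate cancer lines this state is often mixed, and DU145 is known as a line that carries epithelial and mesenchymal proteins side by side.

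The libraries held 10711859 to 17173584 counted reads. Levels are given as CPM, read counts per 1000000 reads of the library, with totals scaled by the trimmed mean of M values (TMM). HEXIM1, a gene that usually rises when BET proteins are inhibited and here the check of the labels, stood at 113 to 149 CPM in 3 libraries labelled I-BET762 and at 89.6 CPM in the library labelled I-BET762 replicate 2. It was 115 to 157 CPM with both treatments and 69.6 to 86.0 CPM with lactate. It was 70.0 to 77.4 CPM in 3 control libraries and 135 CPM in the library labelled control replicate 2. These libraries go against their labels, and results that use them are also given without both where a call changes. The deviation of genes from their mean followed GC content differently in each group, with Spearman's rho across genes of -0.02 to 0.32 in lactate, -0.18 to 0.17 in I-BET762, 0.06 to 0.43 with both treatments and -0.55 to -0.30 in control libraries. On exon length, lactate replicates 1 and 4 stood at rho -0.40 and -0.42, while the other 14 libraries lay between -0.13 and 0.27.

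The cells carried the epithelial markers of the line. KRT8 averaged 1066 CPM over the 16 libraries, KRT18 883 CPM and KRT19 328 CPM, and CDH1 and EPCAM were read in every library. Under lactate KRT19 rose by 0.76 and KRT8 by 0.49 on the log2 scale (edgeR adjusted p = 0.00891 and 0.0151), or 0.36 and 0.37 (adjusted p = 0.194 and 0.0535) with each library's trend on GC content taken out. When the trend on exon length was taken out too, KRT8 passed (0.51, edgeR adjusted p = 0.0336) and KRT19 did not (0.25, 0.304). The 8 fibroblast markers, which could bring collagen reads, summed to 0.906 to 1.44 CPM in lactate, 0.356 to 1.76 CPM in I-BET762, 0.275 to 1.03 CPM with both treatments and 0.379 to 1.27 CPM in control libraries, and DCN was at 0 in all 16. The 6 leukocyte markers summed to 2.83 to 3.86 CPM in lactate, 1.01 to 2.84 CPM in I-BET762, 1.98 to 2.91 CPM with both treatments and 1.05 to 2.58 CPM in control libraries. CD14 and CD68 carried most of this, with 310 and 150 reads over the 16 libraries, while CD3E had 0 and PTPRC 4. CD68 rose under lactate by 1.12 on the log2 scale (edgeR adjusted p = 0.0223), or 1.04 (adjusted p = 0.0478) with the trend on GC content taken out, and CD14 stood at 0.68 (adjusted p = 0.198). CD68 did not pass when exon length was taken out too (0.94, edgeR adjusted p = 0.0727). What part such cells have in the results was not tested. The 5 endothelial markers summed to at most 2.27 CPM in any library. The prostate marker FOLH1 and the basal keratin genes KRT5 and KRT14 had 0 reads in all 16 libraries.

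Of the 41 genes, 38 passed the filter on low counts and were tested. CDH2, the gene of N-cadherin, and TWIST1 had 0 reads in all 16 libraries. SPARC, a collagen-binding matrix protein, had 2 reads, both in control replicate 4. Such a count of 0 in a library allows a level of up to 0.175 to 0.280 CPM, which is 3 reads, and this limit covers counting error only. Of the cadherin pair, the epithelial one alone was read, while vimentin messenger RNA was abundant. Per kilobase of exon, mean levels were highest for PLAU (697 CPM per kilobase), CCN1 (240), ITGB1 (218), VIM (175), ITGA3 (121) and LAMB3 (106). CDH1 stood at 18.3 CPM per kilobase, ZEB1 at 2.73, SNAI1 at 4.88, FN1 at 1.04 and COL1A1 at 0.556. ZEB2, SNAI2 and COL5A1 were the lowest tested members, at 0.0463, 0.318 and 0.0443 CPM per kilobase, with at most 26, 33 and 21 reads in a library.

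**Figure D1:**
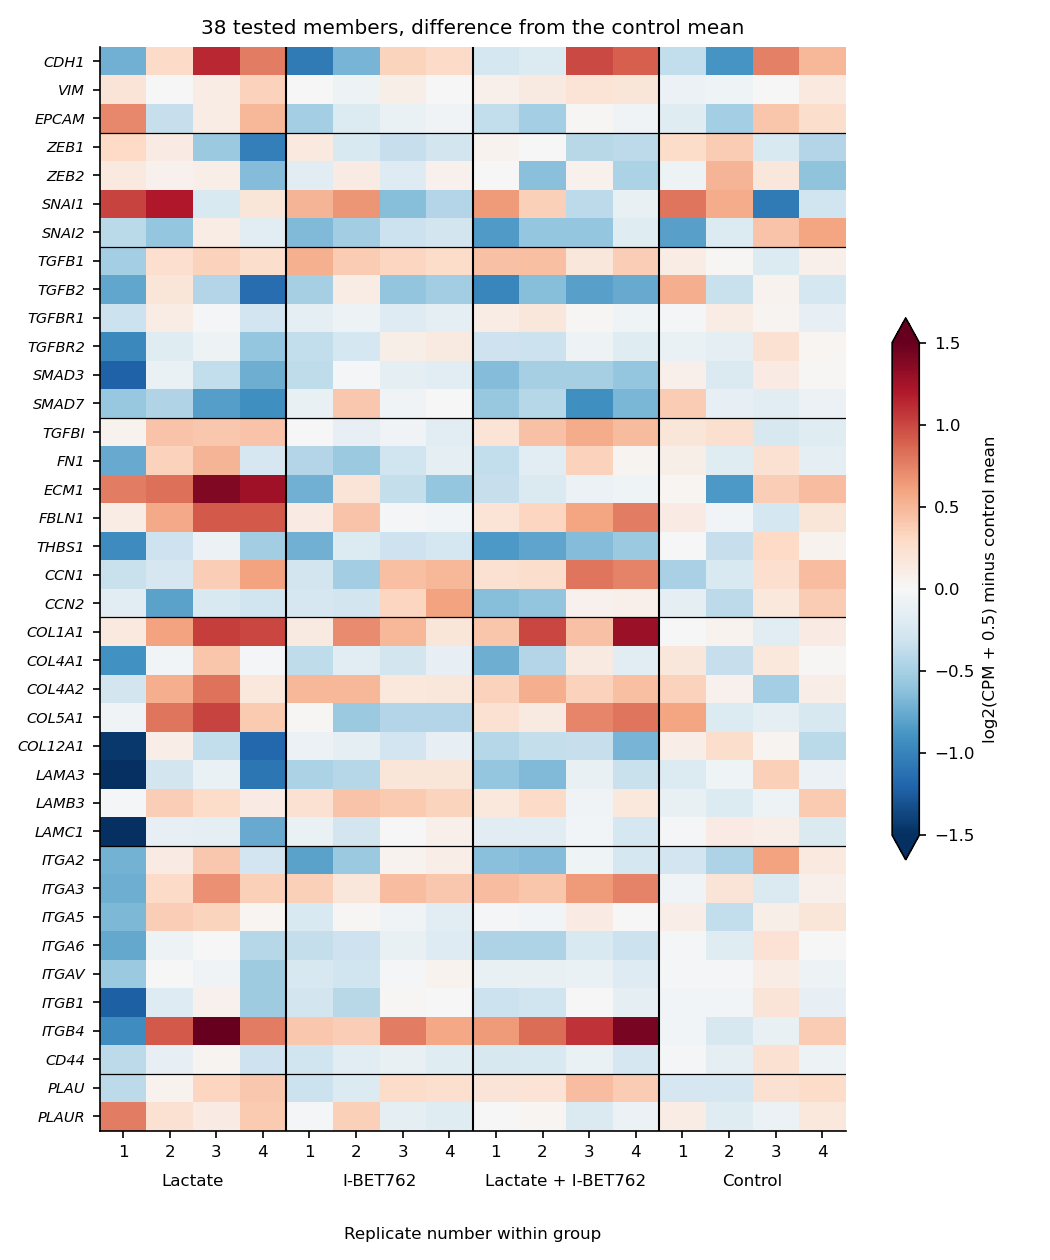
Level of each of the 38 tested genes (rows, grouped by role, role blocks parted by lines) in each of the 16 libraries (columns, by group and replicate number), as log2(CPM + 0.5) minus the mean of the 4 control libraries, with the colour scale ending at -1.5 and 1.5. ECM1, FBLN1 and COL1A1 are red across the lactate libraries and SMAD7 blue across both lactate-treated groups, while the CDH1, SNAI1 and ZEB1 rows change colour between replicate numbers inside every group.

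Lactate changed 5 of these genes. Against control, 3 of the 38 rose and 2 fell by edgeR's quasi-likelihood test at adjusted p below 0.05, which is 13.2%, against 23.7% of all 14690 tested genes (13.6% higher and 10.1% lower). The genes that rose were the secreted matrix genes ECM1 and FBLN1 and the collagen gene COL1A1. Those that fell were SMAD7 and SMAD3, the inhibitor and the effector of TGF-beta signalling. The median log2 fold change of the 38 was -0.01, against 0.03 over all tested genes. The libraries of the groups did not overlap for 3 members, ECM1, COL1A1 and SMAD7 (7.89%, against 20% of all tested genes). With both treatments against control, 3 rose (TGFBI, COL1A1 and ITGB4) and 4 fell (TGFB2, SMAD3, SMAD7 and THBS1), 18.4% against 20.7% of all tested genes, and 11 members did not overlap (28.9% against 31.2%). Each of these shares lay under that of all tested genes.

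I-BET762 alone changed 0 of the 38 members by edgeR against control, with a background of 0.442%. At unadjusted p below 0.05 there were 3 (TGFB1, THBS1 and LAMB3), and DESeq2 and limma-voom called 0. The libraries of the groups did not overlap for TGFB1 and COL1A1 (5.26%, against 10.8% of all tested genes). In cells already given I-BET762, adding lactate changed 2 members, 5.26% against 4.90% of all tested genes: TGFBI rose and SMAD7 fell, against backgrounds of 3.34% higher and 1.57% lower. Here 7 members did not overlap (18.4% against 22.5%). Adding I-BET762 to lactate changed 0 members by edgeR, as it changed 0% of all tested genes, with 3 at unadjusted p below 0.05 (EPCAM, ECM1 and PLAUR). The groups did not overlap for ECM1 and PLAUR (5.26%, against 7.60% of all tested genes). DESeq2 called 1 of them, ECM1, and limma-voom 0. The interaction of the agents called 0 members and 0% of all tested genes by edgeR, DESeq2 and limma-voom, with 3 at unadjusted p below 0.05 (TGFBR1, ECM1 and PLAUR). The comparisons share libraries: lactate, I-BET762 and both treatments are each set against the same 4 controls.

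**Figure D2:**
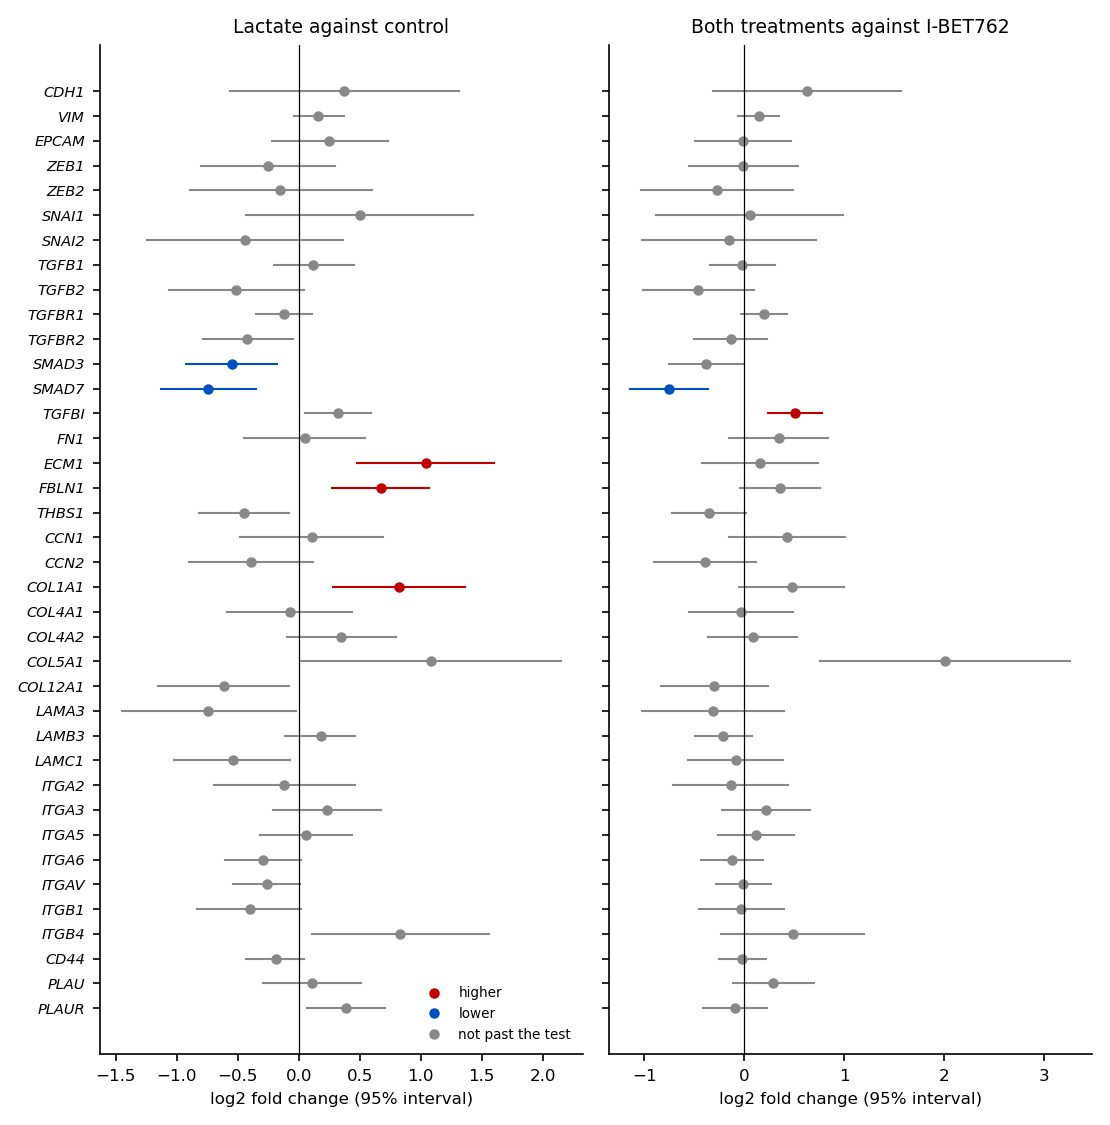
Log2 fold change with its 95% interval for the 38 tested genes, lactate against control (left) and both treatments against I-BET762 alone (right). Red genes rose, blue genes fell and grey genes did not pass edgeR's test. SMAD7 lies below 0 at -0.74 and -0.75, and the interval of CDH1 spans 0 in both panels.

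In the model of the 4 groups, which leaves the replicate number out, no gene of epithelial and mesenchymal state passed the test in any comparison. CDH1 (ENSG00000039068, GRCh38 chromosome 16, 68737225 to 68835548, plus strand) encodes E-cadherin, the adhesion protein of adherens junctions. It was 56.5, 114, 206 and 159 CPM in lactate replicates 1 to 4, 44.7, 57.7, 118 and 114 CPM in I-BET762, 78.1, 81.5, 186 and 175 CPM with both treatments, and 72.6, 50.3, 159 and 132 CPM in control libraries. The groups overlapped throughout, and every group held a low pair and a high pair. The log2 fold change of lactate against control was 0.37 (SE 0.43, 95% interval -0.56 to 1.31, edgeR adjusted p = 0.54). Added to I-BET762, lactate gave 0.63 (interval -0.31 to 1.57).

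EPCAM, an epithelial adhesion molecule, was 149, 71.1, 97.3 and 128 CPM in lactate, 63.1, 78.7, 84.5 and 87.2 CPM in I-BET762, 69.9, 63.3, 91.6 and 87.1 CPM with both treatments, and 79.5, 63.6, 121 and 109 CPM in control libraries. Lactate replicate 1 was the highest of the 16, and the groups overlapped. VIM, the vimentin intermediate filament gene, was 973, 852, 917 and 1083 CPM in lactate, 851, 808, 902 and 857 CPM in I-BET762, 895, 937, 981 and 967 CPM with both treatments, and 799.9, 815, 859 and 942 CPM in control libraries. It was the steadiest of these genes, with a highest library 1.35 times the lowest. Its log2 fold change under lactate was 0.16 (interval -0.04 to 0.37). With trends on GC content and exon length taken out it was 0.34 and past the threshold (edgeR adjusted p = 0.0313). Antisense VIM-AS1 averaged 2.37 CPM and shares 12.4% of the exon bases of VIM.

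Of the transcription factors that repress CDH1, none of the 4 tested passed in that model in any comparison. ZEB1, a zinc-finger repressor, was 31.7, 28.0, 17.4 and 12.4 CPM in lactate, 28.4, 21.9, 20.1 and 21.2 CPM in I-BET762, 26.8, 25.8, 19.1 and 19.5 CPM with both treatments, and 31.3, 33.7, 21.9 and 18.8 CPM in control libraries. SNAI1, the snail repressor, was 13.8, 15.7, 5.55 and 7.52 CPM in lactate, 9.61, 10.7, 4.04 and 4.72 CPM in I-BET762, 10.5, 8.58, 4.88 and 6.08 CPM with both treatments, and 11.9, 9.94, 2.89 and 5.25 CPM in control libraries. The groups overlapped for both genes. ZEB2 ranged from 0.60 to 1.97 CPM over the 16 libraries and SNAI2 from 0.55 to 2.34 CPM. The largest value among these factors was that of SNAI2 with both treatments against control, -0.90 (interval -1.73 to -0.08, edgeR adjusted p = 0.10).

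What did part the libraries for these genes was the replicate number. In each of the 4 groups, replicates 3 and 4 both lay above replicates 1 and 2 for CDH1, and both lay below them for SNAI1 and ZEB1. Over the 16 libraries CDH1 was 114.44 to 206 CPM in those numbered 3 and 4, against 44.7 to 114.1 CPM in those numbered 1 and 2. SNAI1 was 2.89 to 7.52 CPM in libraries 3 and 4 and 8.58 to 15.7 CPM in libraries 1 and 2, without overlap. ZEB1 was 12.4 to 21.94 CPM in libraries 3 and 4, against 21.85 to 33.7 CPM in libraries 1 and 2. CCN1, a matricellular protein and a known target of YAP and TEAD, and PLAU, the urokinase protease, also lay above in libraries 3 and 4 of every group. Thus 3 members were above and 2 below, 5 of 38 or 13.2%, against 5.14% of all tested genes (2.59% above and 2.55% below). This split was noticed after the values were seen and is a description of these 16 libraries. The labels do not say what a replicate number stands for, and the split itself was not tested. Some fits with replicate number as a block called CDH1 and SNAI1 between treatments, as given in the last section. Each group holds both kinds of library, and the intervals of CDH1 and SNAI1 given here include that spread.

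**Figure D3:**
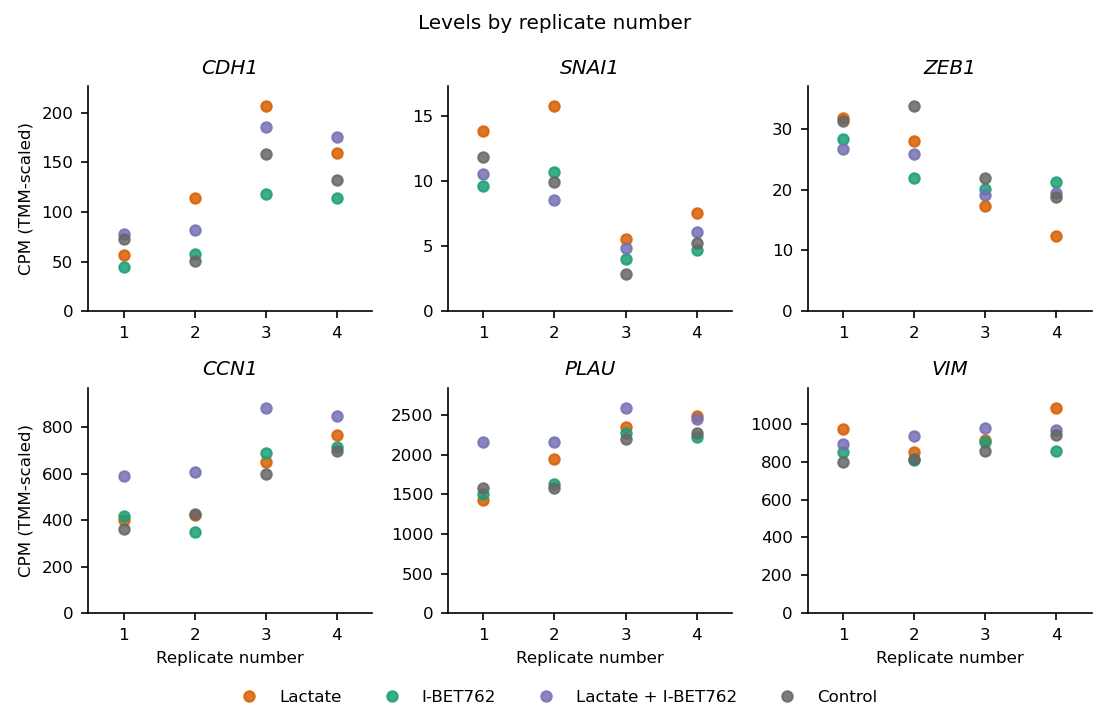
CPM (vertical axes, from 0) by replicate number (horizontal axes) for CDH1, SNAI1, ZEB1, CCN1, PLAU and VIM, with 1 point per library coloured by group. In every group CDH1, CCN1 and PLAU are higher and SNAI1 and ZEB1 lower in replicates 3 and 4. VIM stays between 799.9 and 1083 CPM and is higher in replicates 3 and 4 in 3 of the 4 groups, lactate being the exception.

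Among the 6 TGF-beta genes, lactate lowered 2 and raised 0, or 33.3% changed, against 23.7% of all tested genes. SMAD7 (ENSG00000101665, GRCh38 chromosome 18, 48919853 to 48952052, minus strand), the inhibitory SMAD, is itself switched on by SMAD3, which binds short CAGAC boxes in promoters. It was 6.81, 7.42, 5.60 and 5.21 CPM in lactate, 9.47, 13.8, 9.92 and 10.4 CPM in I-BET762, 6.81, 7.54, 5.23 and 6.22 CPM with both treatments, and 13.5, 9.41, 9.13 and 9.65 CPM in control libraries. All 8 lactate-treated libraries lay below all 8 others, whether or not I-BET762 was present. SMAD7 averaged 6.26 ± 1.03 CPM in lactate, against 10.4 ± 2.1 CPM in control libraries (SD, n = 4 each), a log2 fold change of -0.74 (SE 0.18, edgeR adjusted p = 0.00945). It averaged 6.45 ± 0.98 CPM with both treatments, against 10.9 ± 2.0 CPM in I-BET762 alone (SD, n = 4 each), a log2 fold change of -0.75 (SE 0.18, edgeR adjusted p = 0.0225). With both treatments against control it fell by 0.69 on the log2 scale (SE 0.18, edgeR adjusted p = 0.0123).

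The fall of SMAD7 under lactate kept its call when any 1 library was left out (-0.84 to -0.59, highest adjusted p = 0.0357) and when each library's trend on GC content was taken out (-0.97, adjusted p = 0.00352). Fitted on the lactate and control libraries only, it stood at adjusted p = 0.0558. Added to I-BET762, it missed the threshold without the library labelled I-BET762 replicate 2 (-0.62, adjusted p = 0.0779), I-BET762 replicate 4 (0.0542), or replicate 3 or 4 given both treatments (0.0761 and 0.0784), and without the pair that goes against its labels by HEXIM1 (0.0792). With both treatments against control it missed the threshold without control replicate 1 (adjusted p = 0.0517). The sequence around its start is shown because SMAD7 is the member that both lactate contrasts called. It covers 300 bases around the most upstream of 3 starts in RefSeq (GRCh38.p14, chr18:48950916-48951215, minus strand, read 5′ to 3′), with CAGAC boxes in capitals.
SMAD7: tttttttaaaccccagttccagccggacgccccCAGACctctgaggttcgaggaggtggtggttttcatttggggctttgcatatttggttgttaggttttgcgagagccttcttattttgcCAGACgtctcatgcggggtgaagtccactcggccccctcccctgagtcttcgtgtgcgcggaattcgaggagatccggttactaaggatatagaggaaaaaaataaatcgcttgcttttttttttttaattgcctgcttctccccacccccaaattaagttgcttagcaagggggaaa
It holds 2 CAGAC boxes and no GTCTAGAC, the palindromic SMAD element. The window lies inside the GENCODE gene, whose upstream end is at 48952052, and sequence upstream of the window was not searched. CAGAC, searched on both strands, is in 45.3% of 35116 RefSeq windows of this length and in 19 of the 32 members with a window, and GTCTAGAC is in 0.202% and in 0 members. These are matches of letters and say nothing of binding.

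SMAD3 (GRCh38 chromosome 15, 67063763 to 67195195), the transcription factor that the receptors activate, was 101, 219, 182 and 141 CPM in lactate, 179, 229.8, 211 and 209 CPM in I-BET762, 149, 166, 165 and 157 CPM with both treatments, and 247, 201, 255 and 237 CPM in control libraries. With both treatments every library lay below every control and every I-BET762 library, while lactate replicate 2 lay among the controls. Its log2 fold change was -0.55 under lactate (SE 0.17, edgeR adjusted p = 0.0289) and -0.56 with both treatments against control (SE 0.17, edgeR adjusted p = 0.0267). Added to I-BET762, lactate gave -0.38, which did not pass (edgeR adjusted p = 0.219). Lactate replicates 1 and 4, the libraries with the most negative trend on exon length, held the lowest levels, and without them the value under lactate was -0.23 (edgeR adjusted p = 0.166). With the trend on GC content taken out, both calls were lost, at -0.48 under lactate (edgeR adjusted p = 0.0676) and -0.47 with both treatments (0.082). Both passed when trends on GC content and exon length were taken out together, at -0.37 (edgeR adjusted p = 0.048) and -0.43 (0.0253). The call under lactate was also lost without control replicate 1, 3 or 4 or lactate replicate 4 (highest adjusted p = 0.0862), and that of both treatments held in 2 of the 8 fits with 1 library left out.

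TGFB2, a ligand, was 18.2, 35.9, 23.0 and 14.0 CPM in lactate, 22.2, 34.2, 20.7 and 21.8 CPM in I-BET762, 15.8, 20, 17.8 and 18.4 CPM with both treatments, and 46.1, 24.9, 32.8 and 26.2 CPM in control libraries. The libraries given both treatments lay below every control and every I-BET762 library, and the lactate and I-BET762 libraries overlapped the controls. It fell with both treatments against control by 0.85 on the log2 scale (SE 0.25, edgeR adjusted p = 0.025). Without control replicate 1, its highest library, the value was -0.64 (edgeR adjusted p = 0.101). The call was lost in 5 of 8 fits with 1 library left out and with the trend on GC content taken out (-0.62, edgeR adjusted p = 0.126).

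The ligand TGFB1 averaged 86.8 ± 21.0 CPM in lactate, 104 ± 8.6 CPM in I-BET762, 102 ± 8.9 CPM with both treatments and 79.9 ± 7.7 CPM in control libraries (SD, n = 4 each). Every I-BET762 library and every library given both treatments was above every control, but the values of 0.38 and 0.36 did not pass (edgeR adjusted p = 0.278 and 0.0981). Under lactate its direction depends on the treatment of GC content, which is 63.5% in its longest transcript: 0.12 (edgeR adjusted p = 0.565), but -0.40 (edgeR adjusted p = 0.0379) with the trend on GC content taken out. Leaving out lactate replicate 1, its lowest library, gave a rise that passed (0.28, edgeR adjusted p = 0.0413). The exons of TGFB1 also overlap those of HNRNPUL1 on the opposite strand over 6.6% of their bases, and that gene averaged 407 CPM. The receptor TGFBR1 ranged from 73.6 to 103 CPM, and with both treatments against control it passed with trends on GC content and exon length taken out (0.29, edgeR adjusted p = 0.0403). The receptor TGFBR2 ranged from 101 to 231 CPM over the 16 libraries. TGFBR2 gave -0.42 under lactate (interval -0.78 to -0.05, edgeR adjusted p = 0.0772).

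The other genes of TGF-beta signalling did not share a direction. Of 20 tested, 2 rose and 2 fell under lactate (20%, against 23.7% of all tested genes), 0 changed with I-BET762, and 0 changed when lactate was added to I-BET762. LTBP4, which stores latent TGF-beta in the matrix, rose by 1.29 (edgeR adjusted p = 0.0114). SMURF2, a ubiquitin ligase that works with SMAD7, fell by 0.53 on the log2 scale (edgeR adjusted p = 0.0149), and the corepressor TGIF2 rose by 0.53 (edgeR adjusted p = 0.0177). With the trend on GC content taken out, LTBP4 stood at 0.56 (adjusted p = 0.144) and SMURF2 at -0.32 (adjusted p = 0.144), while TGIF2 stayed past the threshold at 0.56. When exon length was taken out too, LTBP4 (0.67, edgeR adjusted p = 0.0392) and TGIF2 (0.53, 0.0177) passed and SMURF2 did not (-0.28, 0.145).

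Of the 7 tested secreted matrix and matricellular genes, lactate raised 2 and lowered 0, or 28.6% changed, against 23.7% of all tested genes. ECM1 (ENSG00000143369, GRCh38 chromosome 1, 150508062 to 150513789, plus strand) encodes a secreted glycoprotein that binds other matrix proteins. It was 15.9, 16.6, 24.6 and 22.6 CPM in lactate, 5.32, 10.5, 7.01 and 5.91 CPM in I-BET762, 7.08, 7.75, 8.53 and 8.68 CPM with both treatments, and 9.28, 4.78, 11.95 and 12.8 CPM in control libraries. All 4 lactate libraries lay above the other 12, and the libraries given both treatments lay among the controls. It averaged 19.9 ± 4.4 CPM in lactate, against 9.70 ± 3.60 CPM in control libraries (SD, n = 4 each), a log2 fold change of 1.04 (SE 0.26, edgeR adjusted p = 0.00991). The call held in all 8 fits with 1 library left out (0.82 to 1.21) and with the trend on GC content taken out (0.93, adjusted p = 0.0228). In the fit of those groups alone it stood at adjusted p = 0.0539.

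With I-BET762 added to lactate, ECM1 averaged 8.01 ± 0.74 CPM, against 19.9 ± 4.4 CPM in lactate alone (SD, n = 4 each). The log2 fold change was -1.32 (SE 0.26, unadjusted p = 9.27e-05 by edgeR's test), with an edgeR adjusted p = 0.221. DESeq2 gave adjusted p = 0.00518, and edgeR without a filter on low counts 0.000631. The lactate value in cells given I-BET762 was 0.16 and that in cells without it 1.04. The difference between them, the interaction, was -0.88 (95% interval -1.68 to -0.07, edgeR adjusted p = 0.70), and it was -0.42 without the pair of libraries that go against their labels by HEXIM1. The difference between the responses thus did not pass the test.

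The RefSeq sequence of 300 bases around the start of ECM1 (GRCh38.p14, chr1:150507859-150508158, plus strand, read 5′ to 3′) is shown because ECM1 had the largest called rise among the members, with CAGAC boxes and TGANTCA, the AP-1 motif, in capitals.
ECM1: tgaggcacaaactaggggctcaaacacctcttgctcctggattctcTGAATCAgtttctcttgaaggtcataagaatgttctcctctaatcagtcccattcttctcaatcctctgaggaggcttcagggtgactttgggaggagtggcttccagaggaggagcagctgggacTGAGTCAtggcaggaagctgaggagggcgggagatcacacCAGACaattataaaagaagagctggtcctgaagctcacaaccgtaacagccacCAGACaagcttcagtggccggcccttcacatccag
It holds 2 TGANTCA and 2 CAGAC, none overlapping another. TGANTCA, which reads alike on both strands, is in 7.71% of the 35116 windows and in 8 of the 32 members with a window (CDH2, TGFBR2, SMAD3, ECM1, LAMA3, LAMB3, ITGA5 and PLAUR). Of those 8, ECM1 rose and SMAD3 fell under lactate.

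FBLN1 (GRCh38 chromosome 22, 45502238 to 45601135) encodes fibulin 1, a glycoprotein of basement membranes and elastic fibres. It was 22.1, 30.5, 39.0 and 39.0 CPM in lactate, 22.4, 27.8, 19.95 and 19.8 CPM in I-BET762, 23.7, 25.6, 31.1 and 35.3 CPM with both treatments, and 22.4, 19.8, 17.01 and 23.2 CPM in control libraries. Lactate replicates 2, 3 and 4 lay above the controls and replicate 1 among them. Its log2 fold change under lactate was 0.67 (SE 0.18, edgeR adjusted p = 0.0165), and 0.51 with the trend on GC content taken out (edgeR adjusted p = 0.0438). It was lost without control replicate 3 (edgeR adjusted p = 0.0614) or lactate replicate 4 (0.059). With both treatments against control it was 0.49 (edgeR adjusted p = 0.0687), although those groups did not overlap.

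TGFBI, a secreted adhesion protein named for its induction by TGF-beta, was 85.6, 111, 109 and 111 CPM in lactate, 82.3, 75.7, 79.4 and 73.4 CPM in I-BET762, 95.3, 112, 121 and 115 CPM with both treatments, and 93.8, 97.3, 69.9 and 72.8 CPM in control libraries. Every library given both treatments was above every I-BET762 library, whereas the controls overlapped both lactate-treated groups. It rose when lactate was added to I-BET762 (0.51, SE 0.12, edgeR adjusted p = 0.0247) and with both treatments against control (0.41, SE 0.12, edgeR adjusted p = 0.0278). Under lactate alone it stood at 0.32 (edgeR adjusted p = 0.067), and at 0.50 (edgeR adjusted p = 0.0079) with trends on GC content and exon length taken out. The call on top of I-BET762 held in 2 of 8 fits with 1 library left out (replicate 1 of either group), and over the 8 the value was 0.47 to 0.58, with a highest adjusted p of 0.0889 without I-BET762 replicate 4. Without the pair of libraries that go against their labels by HEXIM1 it stood at adjusted p = 0.0589. The call of both treatments against control held in 3 of 8 such fits. The TGF-beta target SMAD7 was lower and the TGF-beta target TGFBI higher in the same libraries given both treatments.

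THBS1, the gene of thrombospondin 1, which binds cells and can release latent TGF-beta, was 49.6, 77.5, 89.9 and 66.7 CPM in lactate, 58.0, 82.9, 76.9 and 80.1 CPM in I-BET762, 52.5, 55.2, 61.2 and 64.8 CPM with both treatments, and 95.7, 75.3, 118 and 99.3 CPM in control libraries. The libraries given both treatments lay below every control, while the other treated groups overlapped it. It fell with both treatments against control by 0.73 on the log2 scale (SE 0.17, edgeR adjusted p = 0.00661), with values of -0.45 under lactate (edgeR adjusted p = 0.0617) and -0.38 with I-BET762 (edgeR adjusted p = 0.375). Without the pair of libraries that go against their labels by HEXIM1, the value under lactate passed (-0.56, edgeR adjusted p = 0.0414), and with the trend on GC content taken out it was -0.30 (0.219). The call with both treatments held in all 8 fits with 1 library left out (-0.84 to -0.63) and with the trend on GC content taken out (-0.57, adjusted p = 0.0354).

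FN1, the fibronectin gene and a classical mesenchymal marker, was 10.98, 24.1, 27.1 and 15.8 CPM in lactate, 13.8, 12.7, 15.2 and 17.03 CPM in I-BET762, 14.5, 16.8, 24.2 and 19.3 CPM with both treatments, and 20.1, 16.5, 22.1 and 17.2 CPM in control libraries. The lactate libraries spread on both sides of the controls, and the log2 fold change of 0.05 had an interval of -0.45 to 0.54. CCN1 averaged 560 ± 179 CPM in lactate, 543 ± 186 CPM in I-BET762, 731 ± 154 CPM with both treatments and 521 ± 154 CPM in control libraries (SD, n = 4 each), with overlap. CCN2, its relative, averaged 29.6 ± 5.4 CPM in lactate, 42.1 ± 12.9 CPM in I-BET762, 32.1 ± 8.8 CPM with both treatments and 38.7 ± 9.1 CPM in control libraries (SD, n = 4 each). Neither passed in any comparison in the model of the 4 groups. With replicate number as a block, CCN1 passed with both treatments against control (0.51, edgeR adjusted p = 0.00401) and against I-BET762 (0.47, 0.0181). With that block and trends on GC content and exon length taken out, CCN2 passed at -0.45 under lactate (edgeR adjusted p = 0.0172). It also passed there at -0.40 with both treatments against I-BET762 (0.0401). Of 23 other genes tied to YAP and TEAD, 0 rose and 3 fell under lactate, a share of 13% that lies under the 23.7% of all tested genes: DDAH1 (-0.77), TEAD1 (-0.84) and ASAP1 (-0.58), with edgeR adjusted p of 0.00365, 0.0152 and 0.0307. DDAH1 stayed past the threshold with the trend on GC content taken out (-0.56, adjusted p = 0.0284), and TEAD1 (-0.64, 0.0635) and ASAP1 (-0.41, 0.125) did not. When exon length was taken out too, DDAH1 (-0.58, edgeR adjusted p = 0.0244) and TEAD1 (-0.57, 0.036) passed and ASAP1 did not (-0.33, 0.1).

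**Figure D4:**
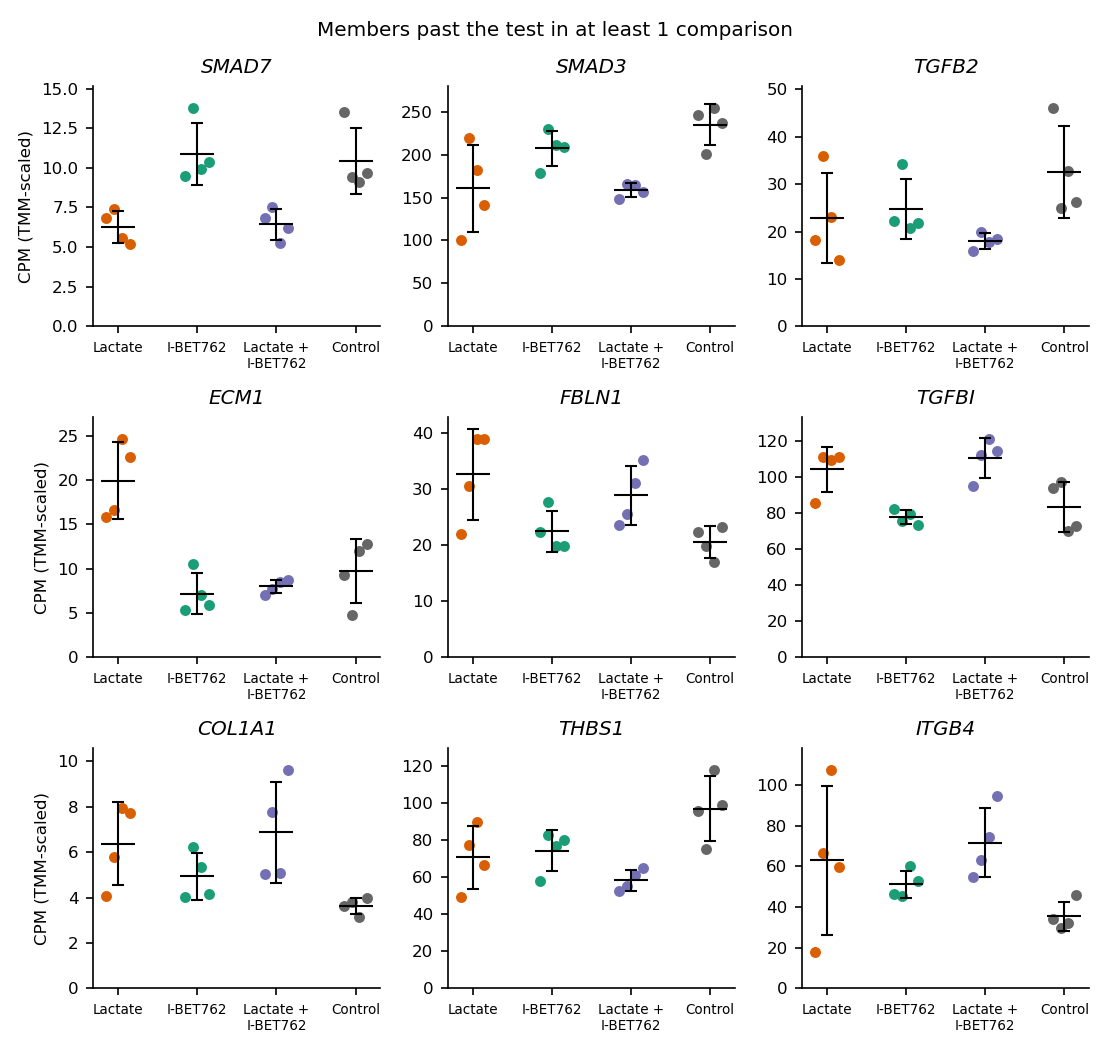
CPM (vertical axes, from 0) in each library for the 9 genes that passed edgeR's test in at least 1 comparison, by group, with the mean (horizontal bar) and SD (n = 4). SMAD7 is low in both lactate-treated groups, ECM1 is high in lactate alone, and THBS1, SMAD3 and TGFB2 have their lowest mean and least spread with both treatments.

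Of the 8 collagen and laminin genes, lactate raised 1 and lowered 0, or 12.5% changed, against 23.7% of all tested genes. COL1A1 (GRCh38 chromosome 17, 50183289 to 50201632), a chain of type I fibrillar collagen, was 4.07, 5.77, 7.93 and 7.74 CPM in lactate, 4.01, 6.23, 5.34 and 4.16 CPM in I-BET762, 5.02, 7.75, 5.09 and 9.63 CPM with both treatments, and 3.62, 3.79, 3.15 and 3.97 CPM in control libraries. Every treated library of each group lay above every control, by a narrow margin in lactate replicate 1 and I-BET762 replicate 1. The log2 fold change was 0.82 under lactate (SE 0.25, edgeR adjusted p = 0.0247), 0.44 with I-BET762 (edgeR adjusted p = 0.584) and 0.92 with both treatments against control (SE 0.25, edgeR adjusted p = 0.0149). GC content, 61.1% in its longest transcript, moves with this result: with the trend taken out, the values were 0.44 (edgeR adjusted p = 0.16) under lactate and 0.48 (0.155) with both treatments. The call under lactate was also lost without control replicate 1 or 3 or lactate replicate 3 or 4 (highest adjusted p = 0.0789), and that of both treatments held in 6 of 8 such fits. The fibroblast markers COL1A2 and COL3A1 had 27 and 80 reads in the 16 libraries together.

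COL5A1, a minor fibrillar collagen, had 3, 14, 21 and 8 reads in lactate, 5, 1, 2 and 2 reads in I-BET762, 7, 6, 13 and 14 reads with both treatments, and 12, 3, 4 and 3 reads in control libraries. The libraries given both treatments all lay above the I-BET762 libraries. The log2 fold change there was 2.01 (95% interval 0.76 to 3.26, edgeR adjusted p = 0.0521), from so few reads that the fold is poorly fixed. DESeq2 and limma-voom put it at adjusted p = 0.029 and 0.0411, and edgeR with trends on GC content and exon length taken out at 0.0328.

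The basement membrane collagens COL4A1 and COL4A2, which lie head to head, averaged 10.3 ± 3.7 and 26.6 ± 8.5 CPM in lactate, against 10.9 ± 1.8 and 21.0 ± 5.0 CPM in control libraries (SD, n = 4 each), and neither passed. Several long members were lowest in lactate replicate 1. LAMA3, an alpha chain of the laminin that anchors hemidesmosomes, was 39.3, 170, 192 and 96.9 CPM in lactate, against 178, 197, 263 and 193 CPM in control libraries, and its value of -0.74 did not pass (edgeR adjusted p = 0.104). LAMC1, a gamma chain of many laminins, averaged 249 ± 103 CPM in lactate, against 363 ± 37 CPM in control libraries, and COL12A1, a fibril-associated collagen, 50.7 ± 25.1 CPM against 77.8 ± 14.5 CPM (SD, n = 4 each). LAMB3, the beta chain partner of LAMA3, did not share this: it averaged 502 ± 59 CPM in lactate, 559 ± 33 CPM in I-BET762, 484 ± 47 CPM with both treatments and 445 ± 90 CPM in control libraries (SD, n = 4 each). The exons of LAMA3 span 14678 bases and those of LAMB3 4688 bases, and lactate replicates 1 and 4 had the negative trends on exon length given above. What part exon length has in these values was not tested. With replicate number as a block LAMA3 passed under lactate (-0.84, edgeR adjusted p = 0.0352). It also passed with that block and trends on GC content and exon length taken out (-0.65, 0.0347), but not with these trends taken out and no block.

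Of the other matrix and basement membrane genes 29 were tested. Under lactate 9 rose and 1 fell, 34.5% against the background of 23.7%, and their median log2 fold change was 0.22. COL6A2, a chain of beaded-filament collagen, rose by 1.22 (edgeR adjusted p = 0.00127), FBLN2, a relative of FBLN1, by 1.85 (edgeR adjusted p = 0.00225), and LAMB2, a laminin beta chain, by 0.77 (edgeR adjusted p = 0.00257). With the trend on GC content taken out, these genes stood at 0.50, 1.43 and 0.45 and stayed past the threshold, and the counts were 4 higher and 1 lower, against 9.38% higher and 3.82% lower among all tested genes. When exon length was taken out too, the counts were 6 higher and 1 lower, against 10.6% and 4.67%. When lactate was added to I-BET762, 3 rose (THBS3, LAMB2 and FBLN2) and 1 fell (COL7A1, the anchoring-fibril collagen, by 1.16 on the log2 scale). I-BET762 alone changed 0 of them.

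Of the 8 integrin and CD44 genes, none passed under lactate in the model of the 4 groups and 1, ITGB4, passed there with both treatments against control. ITGB4 (GRCh38 chromosome 17, 75721328 to 75757818) encodes the beta chain that pairs with ITGA6 in hemidesmosomes. It was 18.1, 66.4, 107 and 59.8 CPM in lactate, 46.5, 45.5, 60.0 and 52.7 CPM in I-BET762, 54.8, 63.1, 74.5 and 94.4 CPM with both treatments, and 34.1, 29.6, 32.3 and 45.9 CPM in control libraries. Every library given both treatments lay above every control, whereas lactate replicate 1 was the lowest of all 16 and the other lactate libraries were above the controls. With both treatments against control the log2 fold change was 1.01 (SE 0.33, edgeR adjusted p = 0.0394). The call was lost in 6 of 8 fits with 1 library left out (highest adjusted p = 0.128), by limma-voom (0.0545), without the pair of libraries that go against their labels by HEXIM1 (0.102), and with the trend on GC content taken out (0.40, adjusted p = 0.47). Under lactate it was 0.83 (edgeR adjusted p = 0.0759), and 1.13 (edgeR adjusted p = 0.00137) without lactate replicate 1. ITGB4 also passed under lactate by DESeq2 (0.82, adjusted p = 0.0479) and by edgeR without a filter on low counts (0.83, 0.00882). With the trend on GC content taken out it was 0.27 (edgeR adjusted p = 0.575). GC content is 63.7% in its longest transcript, the highest of the 38.

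Its partner ITGA6 averaged 111 ± 26 CPM in lactate, 114 ± 9 CPM in I-BET762, 105 ± 9 CPM with both treatments and 136 ± 16 CPM in control libraries (SD, n = 4 each), and did not pass in any comparison in the model of the 4 groups. With replicate number as a block ITGA6 passed with both treatments against control (-0.37, edgeR adjusted p = 0.034). ITGB1, the beta chain shared by most matrix receptors, was 634 CPM in lactate replicate 1 and 1023 to 1544 CPM in the other lactate libraries, against 1366 to 1691 CPM in control libraries. ITGA3, a laminin receptor chain, averaged 1125 ± 402 CPM in lactate, 1218 ± 104 CPM in I-BET762, 1422 ± 153 CPM with both treatments and 961 ± 114 CPM in control libraries (SD, n = 4 each). Its libraries with both treatments lay above every control, with a log2 fold change of 0.57 that missed the threshold (edgeR adjusted p = 0.0574). ITGA2, ITGA5 and ITGAV, chains of collagen and fibronectin receptors, gave -0.12, 0.06 and -0.26 under lactate, and CD44, the hyaluronan receptor, -0.19, all with intervals that span 0. Of 12 other integrin chains, 3 rose under lactate and 0 fell, a share of 25% near the 23.7% of all tested genes: ITGA7 (1.05), ITGA2B (0.91) and ITGA9 (1.01), with edgeR adjusted p of 0.00101, 0.00658 and 0.023. With the trend on GC content taken out, ITGA2B stood at 0.53 (adjusted p = 0.0632) and was lost, while ITGA7 (0.73) and ITGA9 (1.11) stayed past the threshold. When exon length was taken out too, ITGA2B passed (0.61, edgeR adjusted p = 0.0386), as did ITGA7 (0.84, 0.00235) and ITGA9 (1.22, 0.0114). ITGA7, at 6.80 CPM on average, also rose when lactate was added to I-BET762 (0.87, edgeR adjusted p = 0.00886).

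In the model of the 4 groups the urokinase pair did not pass in any comparison. PLAU, the secreted protease that activates plasminogen, was the most abundant member per kilobase and averaged 2057 ± 477 CPM in lactate, 1911 ± 400 CPM in I-BET762, 2342 ± 215 CPM with both treatments and 1911 ± 385 CPM in control libraries (SD, n = 4 each). Antisense C10orf55 shares 31.1% of its exon bases but averaged 4.01 CPM. PLAUR, its receptor, was 82.9, 84.9, 71.3 and 78.5 CPM with both treatments, 142, 97.3, 90.6 and 109 CPM in lactate, 82.2, 107, 75.0 and 73.3 CPM in I-BET762, and 90.3, 73.1, 78.3 and 93.0 CPM in control libraries. The libraries given both treatments lay below every lactate library, with a log2 fold change of -0.47 (unadjusted p = 0.00542 by edgeR's test, edgeR adjusted p = 0.239). Under lactate PLAUR stood at 0.39 (edgeR adjusted p = 0.0611).

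Among 22 other matrix proteases and inhibitors, 7 rose and 0 fell under lactate (31.8% against 23.7%), led by the lysosomal protease CTSD (1.19, edgeR adjusted p = 0.0018) and the membrane-bound metalloproteinases MMP24 (1.04, 0.00798) and MMP17 (1.07, 0.0117). With the trend on GC content taken out, 2 were higher and 0 lower, against 9.38% and 3.82% of all tested genes. CTSD stayed past the threshold at 0.66, and MMP24 (0.69, adjusted p = 0.0617) and MMP17 (0.16, 0.58) did not. When exon length was taken out too, 5 were higher and 0 lower, against 10.6% and 4.67% of all tested genes. MMP24 was then past the threshold (0.72, edgeR adjusted p = 0.0438) and MMP17 was not (0.20, 0.452). MMP17 was also the 1 gene of the lists named here that I-BET762 changed, a rise of 1.54 (edgeR adjusted p = 0.0473), and this was 0.73 (adjusted p = 0.304) with the trend on GC content taken out. Of 28 epithelial junction, keratin and epithelial regulator genes, 7 rose and 2 fell under lactate (32.1%), among them the desmosomal genes PKP3 (1.38, edgeR adjusted p = 0.00039) and JUP (0.60, 0.00659), while CTNNB1, the beta-catenin that links E-cadherin to actin, fell by 0.49 on the log2 scale (edgeR adjusted p = 0.00745). With the trend on GC content taken out, PKP3 stayed past the threshold at 0.65, and JUP (0.21, adjusted p = 0.146) and CTNNB1 (-0.31, 0.078) did not. The counts were then 2 higher and 0 lower, against 9.38% and 3.82% of all tested genes. When exon length was taken out too, the counts were 5 and 0, against 10.6% and 4.67%. JUP (0.27, edgeR adjusted p = 0.0675) and CTNNB1 (-0.17, 0.339) still did not pass. Of 16 other mesenchymal genes and regulators, 2 rose and 1 fell, a share of 18.8% that lies under the 23.7% of all tested genes. They were L1CAM, a neural adhesion molecule (1.11, edgeR adjusted p = 0.00788), MYL9, a myosin light chain (0.55, 0.0108), and FOXC1, a transcription factor (-1.05, 0.0153). With the trend on GC content taken out, MYL9 stood at 0.21 (adjusted p = 0.259) and was lost, while L1CAM (0.80) and FOXC1 (-1.17) stayed past the threshold.

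GC content ran with the lactate values across the members. Spearman's rho of log2 fold change on GC content over the 38 members was 0.56 for lactate, 0.61 for I-BET762 and 0.54 for both treatments, each against control, and 0.30 for lactate added to I-BET762. The first 3 share the control libraries, and members are not replicates, so these are descriptions. The genes that rose under lactate had GC contents of 55.8% (ECM1), 57.0% (FBLN1) and 61.1% (COL1A1), while those that fell had 58.7% (SMAD7) and 50.4% (SMAD3). SMAD7 therefore fell against the trend of the set. With the trend taken out per library, the calls under lactate were ECM1 and FBLN1 higher, and SMAD7 and TGFB1 lower, that is 2 and 2 instead of 3 and 2, while the share of higher calls among all tested genes moved to 71.1%, against 57.5% before. When exon length was taken out too, VIM, TGFBI and SMAD3 also passed. That made 4 members higher and 3 lower, with 15.2% of all tested genes changed. Whether the trend belongs to the libraries or to the treatment cannot be told apart in this design. In a bulk measurement, fewer cells in a given state and less messenger RNA per cell cannot be told apart either.

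**Figure D5:**
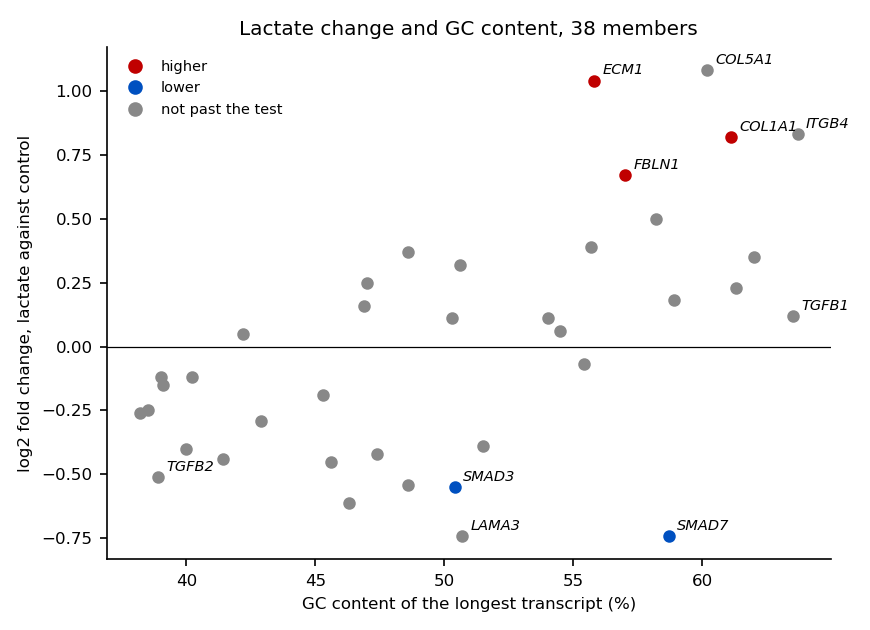
Log2 fold change of lactate against control (vertical axis) by GC content of the longest transcript in percent (horizontal axis) for the 38 tested genes. Red genes rose, blue genes fell and grey genes did not pass edgeR's test; values climb from left to right (Spearman's rho 0.56), with SMAD7 at 58.7% the clearest gene off that line.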

How the data were processed

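RNA was sequenced from polyadenylated transcripts of DU145 cells with a strand-marking kit, from 800 ng of RNA, as single-end reads of 75 bases, per the labels' protocols. The authors deposited raw read counts per gene, and STAR 2.6.1c, DESeq and the builds GRCh38.p12 and hg38 appear in the submitters' processing notes. How reads were counted, on which strand and against which annotation is not given in the sources used here, so reads of overlapping antisense genes may not be told apart. Symbols, coordinates, exon lengths and GC content came from GENCODE v29 (GRCh38), with GC content and length for 99.37% of tested genes. Promoter sequences came from RefSeq (GRCh38.p14).

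Counts were fitted in R 4.3.3 with edgeR 4.0.16 (TMM scaling, filterByExpr with a minimum count of 10 and total of 15, quasi-likelihood tests). All 16 libraries entered 1 model with 12 residual degrees of freedom, and p-values were Benjamini-Hochberg adjusted over 14690 genes at 0.05, two-sided. The common biological coefficient of variation was 0.183. Trends were taken out with per-library offsets from splines (5 degrees of freedom) on GC content, or on GC content and exon length. Alternatives included DESeq2 1.42.0, limma-voom 3.58.1, other scalings and filters, and left-out libraries. The fitting was tested on simulated data. The members and lists were chosen with earlier results of these data known. Library values are given for CDH1, EPCAM, VIM, ZEB1, FN1, TGFBI and members past the test, with other members chosen after their values were seen, and context lists by up to 3 genes of smallest p.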

Additional observations from a re-analysis of the deposited data

Results flagged for a closer look

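Of 152 groups of 4 libraries examined over the 38 members, 6 held a library that stood apart from the other 3 by more than Dixon's critical value for groups of 4, and chance flags about 1 in 20 groups. TGFB1 was lowest in lactate replicate 1 (55.62 CPM, with 95.2 to 101 CPM in the other lactate libraries), and so was TGFBI (85.61 CPM, with 109 to 111 CPM in the others). ZEB2 was lowest in lactate replicate 4, at 0.60 CPM, where it had 8 reads. For TGFB2 the highest I-BET762 library was the one labelled replicate 2 (34.16 CPM), with 20.7 to 22.2 CPM in the other I-BET762 libraries. SMAD7 was highest in control replicate 1, at 13.54 CPM, with 9.13 to 9.65 CPM in the other controls, and COL5A1 was highest there too, at 0.76 CPM, where it had 12 reads. No difference between comparisons passed a test of the difference.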

How the results depend on the processing

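The numbers of members changed depend on the fit. For lactate against control, with 5 members changed, the alternatives gave 9 without a filter on low counts, 8 by DESeq2, 0 with the compared groups fitted alone, 9 without lactate replicates 1 and 4 (chosen after seeing the data) and 2 to 12 with 1 library left out. The 2 were SMAD7 and ECM1, without control replicate 3 or lactate replicate 4. Without lactate replicates 1, 2 and 3 the counts were 10, 12 and 11. Of all genes tested in each fit, 10% were called without a filter, 28.8% by DESeq2, 6.33% with the groups alone and 19.5% without lactate replicates 1 and 4. With 1 library left out the share was 12.4% (without control replicate 3) to 33.3% (without lactate replicate 2). For I-BET762 against control, with 0, the groups alone gave 1 (TGFB1), and leaving out 1 library 0 to 1 (LAMB3, without control replicate 4). The fits that gave 1 called 3.55% and 1.86% of all tested genes. For both treatments against I-BET762, with 2, the groups alone gave 6, leaving out the pair of libraries that go against their labels by HEXIM1 gave 0, and leaving out 1 library 0 to 3. There were 0 without I-BET762 replicate 2 or 4 or replicate 3 or 4 given both treatments, and 1 (SMAD7) without I-BET762 replicate 3 or replicate 2 given both. The share of all tested genes was 18% with the groups alone, 3.15% without that pair and 1.92% to 3.79% with 1 library left out. For both treatments against lactate, with 0, DESeq2 and no filter each gave 1 (ECM1), and called 0.701% and 0.631% of all tested genes. For both treatments against control, with 7, GC offsets gave 3, the groups alone 13, and leaving out 1 library 2 to 6. The 2 were SMAD7 and THBS1, without control replicate 3 or replicate 4 given both, and there were 4 without control replicate 1 or replicate 2 or 3 given both. Here the share of all tested genes was 11.2% with GC offsets, 33.5% with the groups alone and 11.5% to 20.8% with 1 library left out. TGFB1 under lactate turned from 0.12 to -0.40 with GC offsets and to -0.43 with GC and length offsets, also with a replicate block (-0.43). The cause of these changes was not tested.

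Replicate numbers were taken to pair samples only where every same-number correlation of deviations was above 0.1. This held in no comparison, although 14 of 20 such correlations were above 0.1 (range -0.26 to 0.421) and in 11 of 20 a library correlated best with its own number. With replicate number as a block the counts were 11 for lactate against control, 4 for both treatments against I-BET762 and 11 for both treatments against control, and with GC and length offsets as well 10 and 7 for the first 2. Of all tested genes, the block called 28.9%, 6.62% and 24.2% in these comparisons, and with the offsets as well 19.2% and 10% in the first 2. CDH1 is among the genes that pass with the block: 0.64 (adjusted p = 0.0364) for both treatments against I-BET762, and with the offsets as well 0.67 (0.00913) there, 0.55 (0.0162) for lactate against control and 0.47 (0.0325) for both treatments against control. With the block alone, THBS1 (-0.47, 0.0255) and SNAI1 (0.55, 0.0218) pass under lactate, and SNAI2 (-0.85, 0.0374) with both treatments against control. Levels under about 1 CPM (COL5A1, SNAI2, ZEB2) rest on few reads, and their folds are poorly fixed.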
